A study of Mus musculus with 6 samples.

Results

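Adherens junctions and desmosomes are the adhesive contacts that hold neighbouring epithelial cells of the gut together, and 10 genes that encode their parts are described here. They were taken as all probe sets (groups of short probes that read 1 transcript) whose platform symbol was Cdh1, Cdh17, Ctnnb1, Ctnna1, Ctnnd1, Epcam, Dsg2, Dsc2, Jup or Dsp. This gave 10 of the 18194 genes named there and 26 of 45101 probe sets, from 1 for Cdh1, Cdh17 and Jup to 6 for Dsg2, and 25 of the 26 passed the filter on dim signals. The study hybridised colonic mucosa RNA of untreated C57BL/6 mice to Affymetrix arrays that read the 3' ends of transcripts. The p38a-knockout group has 3 arrays and the wildtype group 3, lettered A to C, and intestinal epithelial cells are given as the cell type in both. Mapk14 encodes p38a, a kinase activated by stress. Not given in the sources used here were the driver and extent of the deletion, the age and sex of the mice, and whether each array is a separate animal. The p-values therefore speak of the spread among these arrays, which may be technical.

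In an adherens junction the extracellular part of a classical cadherin binds the same cadherin on the next cell. Its tail binds beta-catenin and p120-catenin, and alpha-catenin links beta-catenin to actin. Desmosomes use related cadherins, the desmogleins and desmocollins, which plakoglobin and desmoplakin tie to keratin filaments. In the intestine beta-catenin is also the transcriptional effector of Wnt signalling, which maintains the crypt stem cells.

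Values are log2(signal + 16) after quantile normalization, which gives all arrays 1 distribution, and each difference is the mean of the arrays labelled knockout minus that of wild type. The suffix of 7 of the 26 member probe sets marks probes that may read other transcripts as well. These are the brightest of Ctnna1, Ctnnd1 and Jup, the dimmer of Epcam, the ones ranked 2 and 3 by brightness for Dsg2 and 2 for Dsp. There is no read depth for arrays, and precision rests on their number and on the spread among them, which differs between probe sets. Wild type A and C were dim, with a trimmed mean of the deposited signals of 141 and 117, against 188 to 222 on the other 4 arrays. They also had the highest Gapdh ratios (the 3' over the 5' control probe set, a measure of RNA degradation), at 1.10 and 1.45. Wild type B had 0.989 and the arrays labelled knockout 0.859 to 0.954. Mapk14 itself went against the labels on its brightest probe set, which read 9.72, 9.91 and 9.73 under the knockout label and 9.31, 9.44 and 9.37 under the wild-type label. It was 0.41 higher under the knockout label (SE 0.15, limma unadjusted p = 0.0239, adjusted p = 0.915). Its groups did not overlap, as in 8.74% of all tested probe sets. On the other 4 tested Mapk14 probe sets the groups overlapped, with differences of 0.62, 0.34, 0.29 and -0.065. Which probe sets lie within the deleted part was not examined, so none of them checks the label, and samples are called by their labels throughout. All 10 intestinal epithelial marker genes looked at, among them Vil1 and Krt8, were above the signal filter.

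No junction gene changed past the test between the groups. Of the 25 tested probe sets 9 were higher and 16 lower in the arrays labelled knockout, with differences from -0.29 to 0.36 and a median of -0.062. Over all 27002 tested probe sets the median was 0.023. limma called 0 of the 25 at an adjusted p of 0.05 (adjusted p from 0.915 to 0.996), and 0% of all tested probe sets. At an unadjusted limma p under 0.05 there were 0 of the 25, against 3.53% of all tested probe sets. In 1 of the 25, a Ctnnb1 probe set, the groups did not overlap, against 8.74% of all. None of the 25 differed by more than 0.5, against 8.35% of all tested probe sets, which were not matched to the members in brightness. In bulk mucosa, fewer cells of a type and less RNA per cell cannot be told apart.

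**Figure D1:**
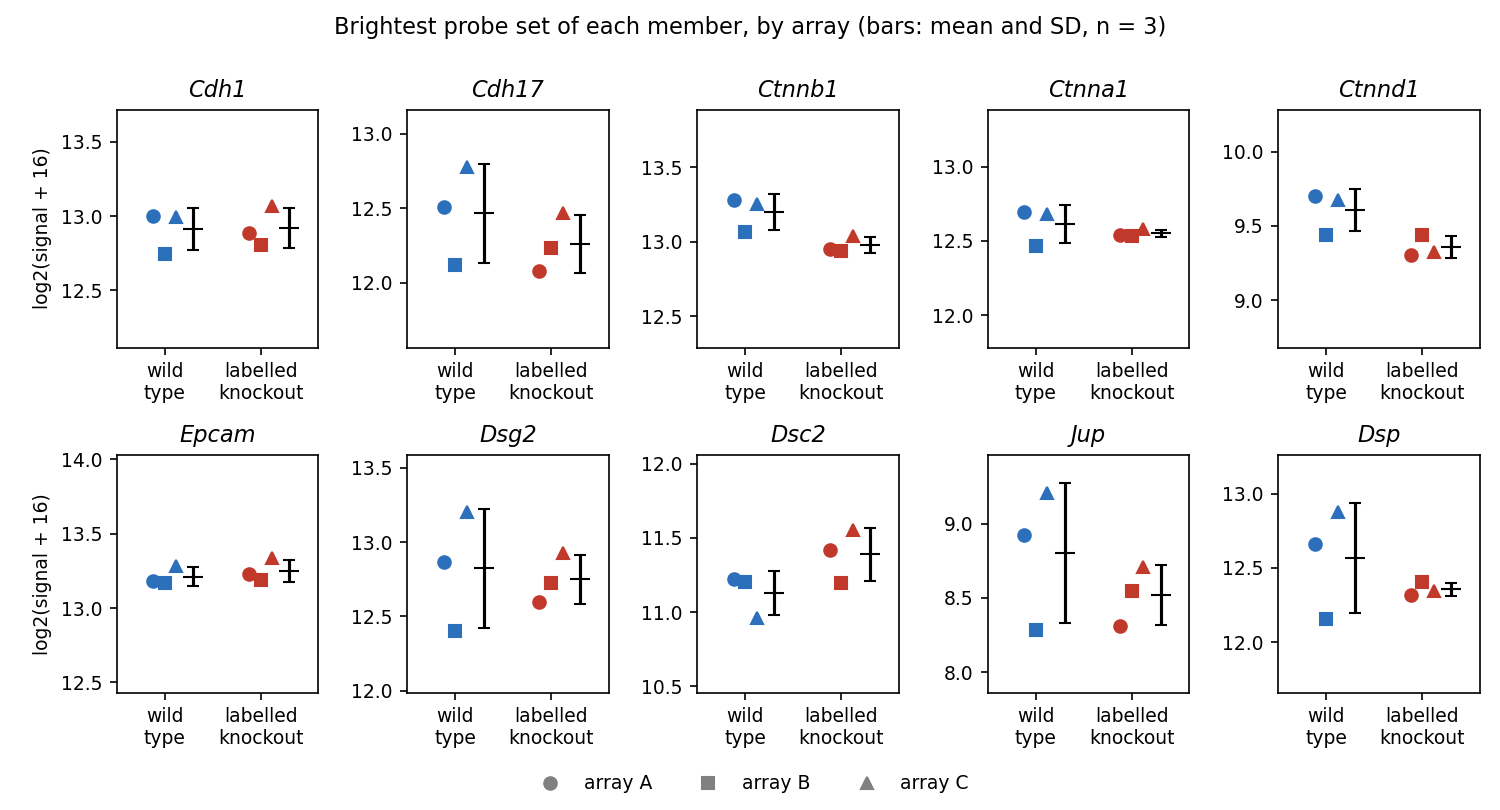
Each panel shows log2(signal + 16) of a gene's brightest probe set on the 3 wild-type arrays (blue) and the 3 arrays labelled knockout (red), with the mean and SD (n = 3) in black; all panels span the same number of log2 units, but each has its own centre. The groups are apart for Ctnnb1 and overlap in the other 9 genes, and wild type B (blue square) is the lowest wild-type array in 9 of the 10.

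Cdh1 encodes E-cadherin, the classical cadherin of epithelia, and was read by 1 probe set. Its level was 12.88, 12.80 and 13.07 in the arrays labelled knockout (here and below in the order A, B, C) and 13.00, 12.75 and 13.00 in wild type. The arrays of the groups lay among each other, and the means were 12.92 ± 0.13 and 12.91 ± 0.14 (SD, n = 3 each). The difference was 0.0056 (SE 0.12, limma adjusted p = 0.996), with a 95% interval from -0.27 to 0.28, or 0.831-fold to 1.21-fold. A change within that range is compatible with these 3 arrays a group, and the interval is not a limit of detection.

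Cdh17 encodes LI-cadherin, a cadherin of the intestine with a short tail that does not bind catenins. It stood at 12.08, 12.23 and 12.47 in the arrays labelled knockout and at 12.51, 12.12 and 12.78 in wild type. Wild type B lay with the arrays labelled knockout, and wild type A and C above them. The difference was -0.21 (SE 0.18, limma adjusted p = 0.915, 95% interval -0.62 to 0.21). With wild type B alone as control it was 0.14, and without wild type B it was -0.38, so the sign rested on which wild-type arrays were used.

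Ctnnb1, the beta-catenin gene, gave the smallest p of the 25 probe sets and the same direction on each of its 3 probe sets. The brightest read 12.95, 12.94 and 13.04 in the arrays labelled knockout and 13.28, 13.06 and 13.25 in wild type. Each array labelled knockout lay below each wild-type array, by as little as the gap between 13.04 and 13.06, and 4% of all tested probe sets were separate in this direction. The means were 12.98 ± 0.05 and 13.20 ± 0.12 (SD, n = 3 each), 1.17-fold higher in wild type, with a difference of -0.22 (SE 0.10, limma unadjusted p = 0.0594, adjusted p = 0.915, 95% interval -0.46 to 0.011).

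The other Ctnnb1 probe sets differed by -0.25 (SE 0.16) and -0.25 (SE 0.19), with overlapping groups. The brighter of them read 10.49, 10.39 and 10.22 in the arrays labelled knockout and 10.86, 10.47 and 10.53 in wild type. The dimmer read 7.76, 7.68 and 7.88 against 8.23, 7.99 and 7.86. Wild type A was the highest array on all 3. The 3 probe sets read the same RNA samples and are not independent of each other. The mean over them, from the same arrays, had separate groups, as in 9.22% of all gene means. Its difference was -0.24 (limma adjusted p = 0.909). On the signals as deposited, without scaling between arrays, the brightest differed by 0.013 and the others by 0.23 and 0.22. The median of all tested probe sets was 0.40 there, so the 3 lay below that median as they do after quantile normalization.

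Ctnna1 encodes alpha-catenin, and its 3 tested probe sets all had negative differences, from -0.062 to -0.22. The brightest stood at 12.54, 12.54 and 12.58 in the arrays labelled knockout and 12.70, 12.47 and 12.68 in wild type. The arrays labelled knockout lay close together between wild type B and the other wild-type arrays, and the difference was -0.062 (SE 0.11, limma adjusted p = 0.931, 95% interval -0.31 to 0.18). The remaining Ctnna1 probe set was below the filter, with 4.33 to 4.83 in the arrays labelled knockout and 4.35 to 5.08 in wild type, and was not tested.

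Ctnnd1 encodes p120-catenin, which stabilises cadherins at the membrane, and its probe sets disagreed in sign. The brightest read 9.30, 9.44 and 9.32 in the arrays labelled knockout and 9.70, 9.44 and 9.68 in wild type, a difference of -0.25 (SE 0.16, limma adjusted p = 0.915). Wild type B, at 9.440, lay just below the array labelled knockout B, at 9.441, so the groups met at that value. Another probe set read 7.86, 7.87 and 8.10 against 7.82, 7.67 and 7.86, a difference of 0.16 (SE 0.18, limma adjusted p = 0.916). The dimmest differed by -0.27 (SE 0.30). Which transcripts of Ctnnd1 each probe set reads was not used here, and a direction for the gene cannot be given.

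Epcam encodes an epithelial surface protein that contributes to adhesion between intestinal cells. It was the member with the narrowest interval. Its brightest probe set stood at 13.23, 13.19 and 13.33 in the arrays labelled knockout and at 13.18, 13.17 and 13.28 in wild type. All arrays lay between 13.17 and 13.33, and the difference was 0.039 (SE 0.095, limma adjusted p = 0.952, 95% interval -0.18 to 0.25, or 0.885-fold to 1.19-fold). Its other probe set read 9.69, 9.75 and 9.69 against 9.75, 9.41 and 10.09, a difference of -0.043 (SE 0.19), with the arrays labelled knockout inside the spread of wild type.

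Repressors of the Snail and Zeb families silence epithelial adhesion genes by binding the E-box CACCTG. Promoter sequences of 5 members (Ctnnb1, Ctnnd1, Dsp, Epcam and Jup), at 7 starts, were taken from RefSeq (GRCm38.p6). Cdh1 and Cdh17 had no promoter in the sequences used, and Ctnna1, Dsg2 and Dsc2 were left out by plan. The member counts below say nothing of these genes. The 250 bases before each start were searched on both strands. CACCTG was found in 17.2% of 32851 promoters of this length, and in 1 of the 7, that of Epcam. TTTATN, the core bound by the intestinal factors Cdx1 and Cdx2, was found in 37.2% of them and at 4 of the 7 starts, those of Ctnnd1, Epcam and Jup and 1 of the Ctnnb1 starts. The motifs do not overlap in the Epcam promoter, which holds CACCTG 187 to 182 bases before the start on the gene's strand and 19 to 14 bases before it on the other. The Epcam promoter (chr17:87635729-87635978, plus strand) is shown for these matches, and the upstream Ctnnb1 promoter (chr9:120933150-120933399, plus strand), which has neither motif, because Ctnnb1 had the smallest p. The downstream Ctnnb1 start (window chr9:120933328-120933577, plus strand) has TTTATN on the other strand, 120 to 115 bases before it. Capitals mark CACCTG or its complement CAGGTG.
Epcam: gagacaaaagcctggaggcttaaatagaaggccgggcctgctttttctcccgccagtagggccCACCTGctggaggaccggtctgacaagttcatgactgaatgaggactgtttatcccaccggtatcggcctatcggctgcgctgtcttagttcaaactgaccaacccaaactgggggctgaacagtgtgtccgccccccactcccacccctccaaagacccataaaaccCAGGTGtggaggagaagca
Ctnnb1: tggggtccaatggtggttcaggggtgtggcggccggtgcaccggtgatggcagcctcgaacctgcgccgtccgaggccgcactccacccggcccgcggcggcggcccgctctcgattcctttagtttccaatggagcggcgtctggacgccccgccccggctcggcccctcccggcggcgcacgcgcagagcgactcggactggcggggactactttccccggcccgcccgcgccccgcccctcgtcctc
A match is a description of the letters and shows no binding. The repressor genes Snai1, Snai2, Zeb1, Zeb2 and Twist1 were all below the signal filter here.

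**Figure D2:**
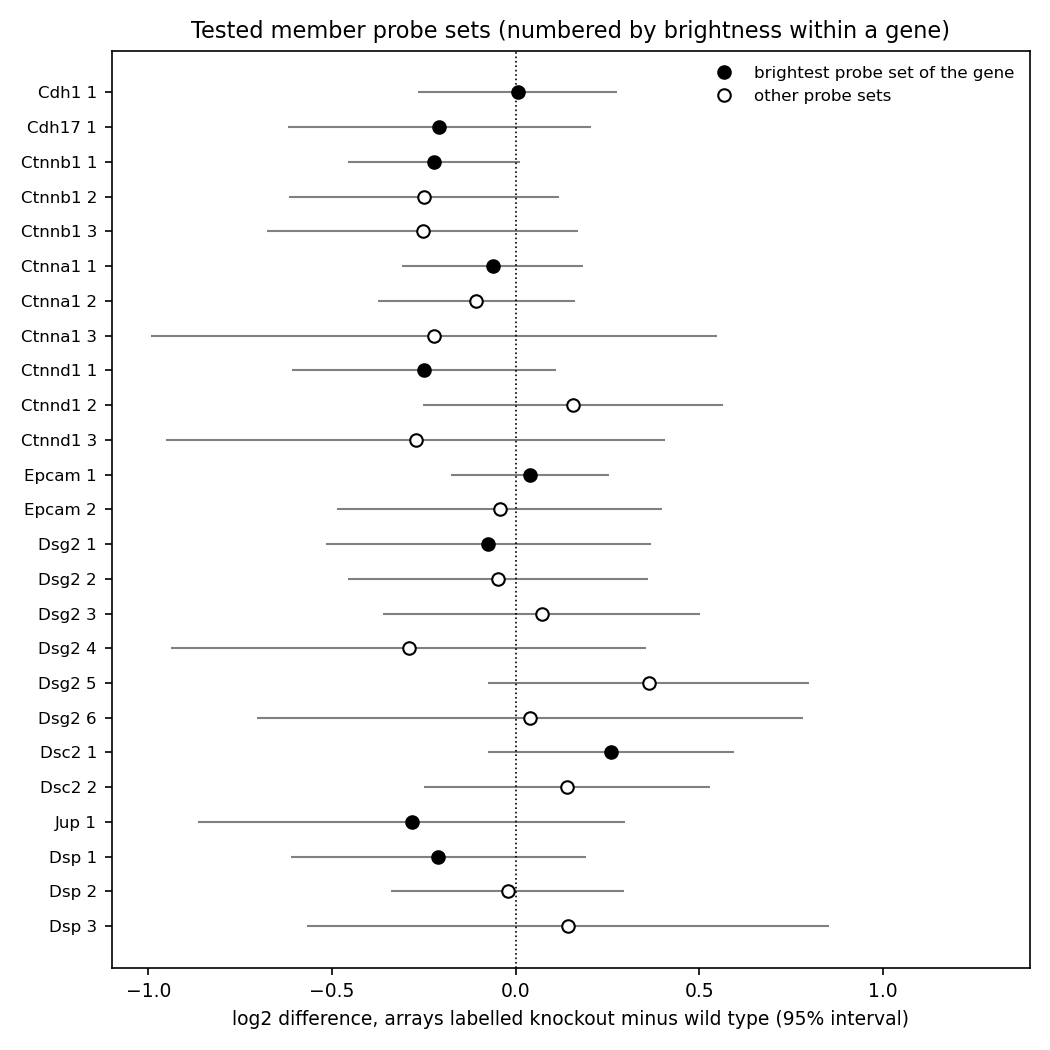
Points are log2 differences (arrays labelled knockout minus wild type) of the 25 tested probe sets, numbered by brightness within a gene, and lines are 95% intervals from limma; filled points mark each gene's brightest probe set. All intervals include 0, and the probe sets of Ctnnd1, Epcam, Dsg2 and Dsp lie on both sides of it.

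Among the desmosomal cadherins, Dsc2 (desmocollin 2) had positive differences on both probe sets. The brighter stood at 11.42, 11.20 and 11.55 in the arrays labelled knockout and at 11.22, 11.20 and 10.96 in wild type. The array labelled knockout B reached down to the wild-type arrays, and the means were 11.39 ± 0.18 and 11.13 ± 0.15 (SD, n = 3 each). The difference was 0.26 (SE 0.15, limma unadjusted p = 0.113, adjusted p = 0.915, 95% interval -0.076 to 0.60). The other probe set read 9.02, 8.75 and 9.08 against 8.90, 8.74 and 8.79, a difference of 0.14 (SE 0.17). On the signals as deposited they differed by 0.72 and 0.66, above the median of 0.40 over all tested probe sets. Dsc2 was the 1 member with the same sign on all its tested probe sets under each alternative that was run, although it was called in none of them. That sign includes the shift of all probe sets on the deposited signals, which favours positive differences. Relative to the median of all probe sets both were above it in each alternative except array weights, where 1 of the 2 was. By this measure Ctnnb1 was the steadier, with all its probe sets below that median in each alternative.

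Dsg2 encodes desmoglein 2, the desmoglein of simple epithelia, and its 6 probe sets split evenly, 3 higher and 3 lower, from -0.29 to 0.36. The brightest read 12.60, 12.72 and 12.93 in the arrays labelled knockout and 12.87, 12.40 and 13.20 in wild type. The 3 wild-type arrays spanned the whole range of the arrays labelled knockout, and the difference was -0.074 (SE 0.19, limma adjusted p = 0.956, 95% interval -0.52 to 0.37).

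With the Dsg2 probe sets numbered from the brightest, number 5 had the largest difference of the 25 in size. It stood at 8.82, 9.15 and 9.23 in the arrays labelled knockout and at 8.93, 8.59 and 8.61 in wild type, where wild type A lay above the array labelled knockout A. Its difference was 0.36 (SE 0.19, limma unadjusted p = 0.0924, adjusted p = 0.915, 95% interval -0.074 to 0.80), and 0.88 on the signals as deposited, where the median of all was 0.40. Number 4 pointed the other way by -0.29 (SE 0.28). It read 8.99, 9.20 and 9.27 against 9.58, 8.79 and 9.96, with wild type B lowest and wild type C highest. The other positive differences were those of number 3, at 0.071 (SE 0.19), and number 6, at 0.040 (SE 0.33). The former read 10.65, 10.91 and 11.12 against 10.97, 10.50 and 11.00, and the latter 7.49, 8.40 and 7.52 against 8.0, 8.09 and 7.21. The groups overlapped on both, and on number 6 the arrays of each group were far apart. Number 2 differed by -0.047 (SE 0.18).

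Jup encodes plakoglobin, the catenin found in both kinds of junction. Its single probe set read 8.31, 8.55 and 8.71 in the arrays labelled knockout and 8.92, 8.29 and 9.20 in wild type. Wild type B was the lowest of the 6 arrays and wild type C the highest. The difference was -0.28 (SE 0.25, limma adjusted p = 0.915, 95% interval -0.86 to 0.30). It was 0.24 against wild type B alone and -0.54 without it.

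Dsp encodes desmoplakin, the plakin that anchors keratin filaments. Its brightest probe set stood at 12.32, 12.41 and 12.34 in the arrays labelled knockout and at 12.66, 12.16 and 12.88 in wild type. Again the arrays labelled knockout lay between wild type B below and wild type A and C above, and the difference was -0.21 (SE 0.18, limma adjusted p = 0.915, 95% interval -0.61 to 0.19). Another probe set read 12.25, 12.36 and 12.35 against 12.50, 12.06 and 12.46, a difference of -0.022 (SE 0.14). The dimmest, near the bottom of the scale, read 5.76, 5.88 and 5.53 against 6.24, 5.51 and 5.0, a difference of 0.14 (SE 0.31).

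The members shared an order among the wild-type arrays. Wild type B was the lowest wild-type array in 21 of the 25 probe sets, against 35.8% of all tested probe sets, and the lowest of all 6 arrays in 14, against 14.5% of all. Wild type A and wild type C were each the highest wild-type array in 12 (wild type C in 38.3% of all). The median deviation of the members from their 6-array mean was 0.15 in wild type A, -0.19 in wild type B and 0.13 in wild type C. On the arrays labelled knockout it was -0.13, -0.055 and 0.073. Among those, C was the highest in 18 of the 25 probe sets, against 33.7% of all. These counts describe probe sets that share arrays and, within a gene, a transcript, so they carry no p.

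**Figure D3:**
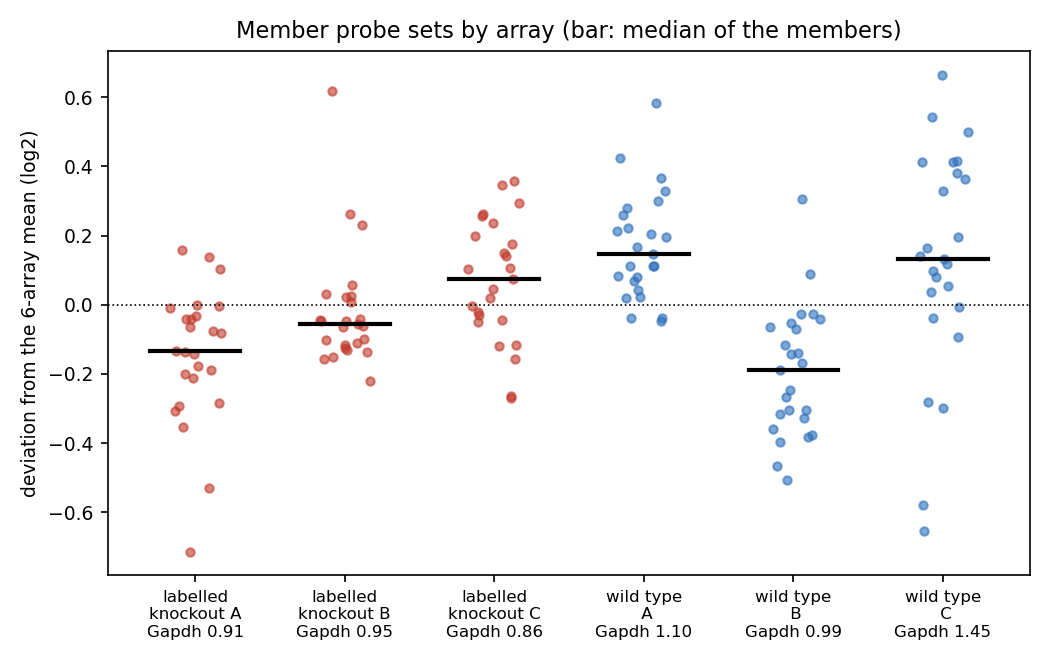
Each point is 1 of the 25 member probe sets on 1 array, as its deviation from the mean of the 6 arrays in log2 units; black bars are medians over the members, and the 3' to 5' Gapdh ratio of each array stands below its name. Wild type B has the lowest median (-0.19), wild type A the highest (0.15), and the arrays labelled knockout run from -0.13 to 0.073.

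The mean of the arrays labelled knockout lay above wild type B in 20 of the 25 member probe sets (48.1% of all tested) and below the mean of wild type A and C in 18 (46.6% of all). Against wild type B alone the member median was 0.21, and without wild type B it was -0.21, where the median of all tested probe sets was -0.014 and 0.029. Without wild type B, 5 of the 25 had an unadjusted limma p under 0.05, all lower, against 16.1% of all probe sets in that setting. They were the brightest probe sets of Cdh17, Ctnnb1, Jup and Dsp and number 4 of Dsg2, and none was called after adjustment. With the Gapdh ratio in the fit the member median was 0.098 and 18 of the 25 were positive. Each wild-type array had a higher Gapdh ratio than each array labelled knockout, so that fit cannot fully separate the ratio from the label. Brightness and the Gapdh ratio also differed between wild type B and the other wild-type arrays as given above. Their part in these differences was not tested.

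**Figure D4:**
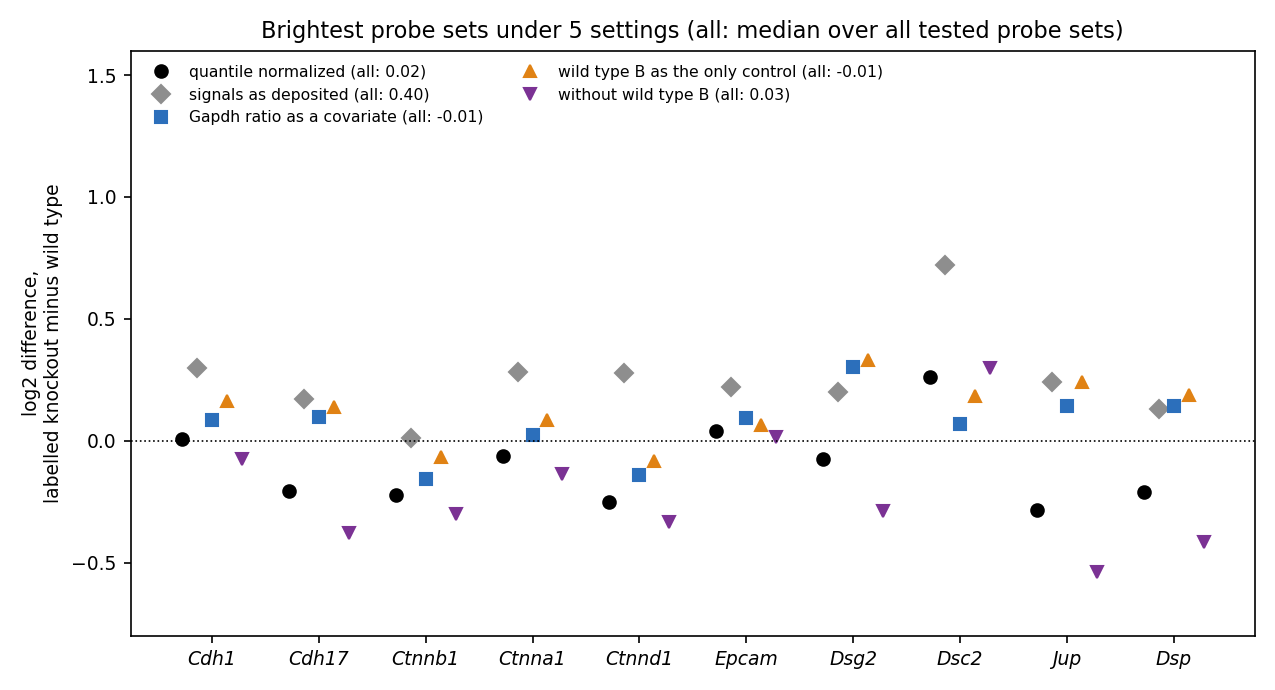
Points are log2 differences (arrays labelled knockout minus wild type) of the brightest probe set of each member under 5 settings, with the median over all tested probe sets of each setting in the legend. Dsc2 and Epcam are above 0 under all 5, the signals as deposited carry a shift of 0.40 common to all probe sets, and the values without wild type B lie below those against wild type B alone in 9 of the 10 genes, Dsc2 being the exception.

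On the signals as deposited all 25 member probe sets were positive, with a median of 0.28 against 0.40 for all tested probe sets. The groups did not overlap in 12 of the 25, against 24.1% of all in that setting, and 5 had an unadjusted limma p under 0.05, against 16% of all. Relative to the median of all probe sets the member median was -0.12 there and -0.085 after quantile normalization. The member signs on the deposited signals thus include a shift of 0.40 common to all probe sets, and relative to it 7 of the 25 lay above and 18 below, against 8 and 17 after quantile normalization.

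Other genes of the junctions were also not called. Of 26 further adherens junction genes on the array 20 were tested, with 48 probe sets, of which 22 were higher and 26 lower, with a median of -0.023. limma called 0 of them, and 0 had an unadjusted p under 0.05, against 3.53% of all tested probe sets. The groups did not overlap in 1 of the 48, against 8.74% of all. The probe sets of smallest p belonged to Pvr, a nectin-like receptor gene, at -0.56 (SE 0.29), Wasl, which encodes the actin regulator N-WASP, at -0.29 (SE 0.15), Nectin3 at 0.42 (SE 0.22) and the actin crosslinker gene Actn4 at -0.32 (SE 0.19). Over all their tested probe sets Pvr ran from -0.56 to 0.070 (6), Wasl from -0.29 to 0.12 (4) and Nectin3 from -0.26 to 0.42 (6), and Actn4 had 1. Of the classical cadherin genes of other tissues on this list, Cdh2, Cdh3 and Cdh5 were below the filter. Cdh11 passed it on 1 probe set, at 0.10 (SE 0.40).

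Of 12 further desmosome genes 9 were tested, with 14 probe sets, 6 higher and 8 lower, with a median of -0.021. None had an unadjusted p under 0.05, against 3.53% of all tested probe sets. Pkp2, which encodes the plakophilin of simple epithelia, had separate groups on 1 probe set, the 1 of the 14 that did, against 8.74% of all. It read 10.43, 10.44 and 10.34 in the arrays labelled knockout and 10.27, 10.12 and 10.26 in wild type, a difference of 0.19 (SE 0.14, limma adjusted p = 0.915). Its 3 other probe sets overlapped, with differences from -0.16 to 0.20. Pkp1 read 7.69, 7.94 and 6.97 against 6.57, 7.80 and 4.84, a difference of 1.13 (SE 0.64, limma adjusted p = 0.915) with wild type C the lowest array. Pkp4 stood at -0.35 (SE 0.20), and at -0.074 (SE 0.16) on its brighter probe set, and Dsc3 at -0.30 (SE 0.27). The genes below the filter were Dsg1a, Dsg1b and Dsc1, which are known from stratified epithelia. Dsc3, Pkp1, Evpl, Ppl and Cdsn, also known from there, passed it.

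Of 25 regulators of the members 20 were tested, with 48 probe sets, 29 higher and 19 lower, and a median of 0.023. The groups did not overlap in 3 of the 48, against 8.74% of all tested probe sets. Elf3, an epithelial transcription factor gene, was the 1 of the 48 with an unadjusted p under 0.05, against 3.53% of all. It read 9.86, 10.24 and 9.83 in the arrays labelled knockout and 10.70, 10.24 and 10.86 in wild type, a difference of -0.62 (SE 0.20, limma unadjusted p = 0.0144, adjusted p = 0.915). Wild type B again lay with the arrays labelled knockout. Ovol1 stood at -0.37 (SE 0.21), Gsk3b, which encodes a kinase that marks beta-catenin for breakdown, at 0.42 (SE 0.25) and Grhl2, an activator of Cdh1, at 0.32 (SE 0.21), each on its probe set of smallest p. Their other probe sets differ from these. The brightest Grhl2 probe set stood at 0.0069 (SE 0.16) and its 4 probe sets ran from -0.028 to 0.38. The brightest of 6 for Gsk3b stood at 0.17 (SE 0.15), and the 6 ran from -0.17 to 0.42. The dimmer Ovol1 probe set stood at 0.090. No direction for these 3 genes can be given. The list for the cadherin complex that links microvilli had 6 tested probe sets, 5 lower, with a median of -0.20. It holds Cdhr1, a photoreceptor cadherin gene that is not part of that complex, and without Cdhr1, left out after the values were seen, 4 of 5 were lower with a median of -0.22. The smallest p-values were those of Cdhr5 at -0.61 (SE 0.30), Cdhr2 at -0.59 (SE 0.39), Anks4b at -0.17 (SE 0.22) and Ush1c at -0.22 (SE 0.34). None of the 6 had an unadjusted p under 0.05, against 3.53% of all tested probe sets.

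Markers of other cell types also differed between arrays. The mean of the 10 epithelial markers ran from 12.10 to 12.21 in the arrays labelled knockout and was 12.24, 12.13 and 12.28 in wild type, with wild type B the lowest there as for the junction genes. Of their 16 tested probe sets 6 were higher and 10 lower, and the groups did not overlap in 1, against 8.74% of all. It was that of Krt18, at -0.25 (SE 0.12, limma unadjusted p = 0.0715, adjusted p = 0.915). The mean of 5 leukocyte markers ran from 6.50 to 7.92 in the arrays labelled knockout and was 7.88, 6.89 and 8.57 in wild type. That of 6 fibroblast markers ran from 6.57 to 8.04 and from 7.22 to 7.76. That of 4 smooth muscle markers was highest in A of the arrays labelled knockout (7.15, against 5.53 to 6.12 elsewhere), and that of 3 pancreatic markers in wild type B (8.47, against 7.12 to 7.36). Of 11 squamous markers 9, including Krt14 and Trp63, were below the filter. The mean of the other 2, Krt5 and Krt6a, was taken over the brightest tested probe set of each. It was 5.15, 5.48 and 5.44 in the arrays labelled knockout and 5.95, 5.95 and 5.83 in wild type. These groups, near the bottom of the scale, did not overlap, although on the Krt6a probe set in that mean they did. The dimmer Krt6a probe set, which that mean leaves out, went the other way, at 0.15 (SE 0.23), with overlapping groups. Krt5 differed by -0.69 (SE 0.20, limma unadjusted p = 0.00797, adjusted p = 0.915). It was the 1 of 3 tested squamous probe sets with separate groups, against 8.74% of all. Of 6 endothelial markers 5 were below the filter, and Kdr ran from 4.86 to 5.84 and from 5.59 to 5.99. Wild type B was the lowest wild-type array also for Kdr and the leukocyte, fibroblast and smooth muscle means. The same held for the means of the further junction genes, the regulators and the microvillar list, but not for the pancreatic and squamous means. The T cell gene Cd3e, at -1.01 (SE 0.35, limma unadjusted p = 0.0196, adjusted p = 0.915), and the smooth muscle gene Tagln, at 1.04 (SE 0.40, limma unadjusted p = 0.0310, adjusted p = 0.915), also had groups that did not overlap. These were 1 of 7 tested leukocyte and 1 of 5 tested smooth muscle probe sets, against 8.74% of all. Tagln read 6.88, 5.20 and 5.64 against 5.16, 4.56 and 4.85, near the bottom of the scale. The groups overlapped for Acta2 at 0.56, Actg2 at 0.72 and Des at -0.064 and -0.045. The part of these cell types in the values of the junction genes was not tested.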

How the data were processed

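Per the labels' protocols, total RNA of colonic mucosa was extracted with Trizol, purified on columns and labelled with a 3' in vitro transcription kit. The values deposited by the authors are linear intensities, 1 for each probe set on each array, from MAS5, per the submitters' processing notes. Not given in the sources used here were its version, target and scaling, and array means differed.

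A pseudocount of 16 was added before log2, and arrays were then quantile normalized. Probe sets under the 40th percentile of the mean (a signal of about 18.4) and 64 control probe sets were left out, which left 27002. Of all probe sets, 34958 had 1 platform symbol, 932 several and 9211 none. Groups were compared with limma 3.58.1 in R 4.3.3 (lmFit, eBayes with a variance trend, 4 residual and 4.57 prior degrees of freedom, Benjamini-Hochberg over all 27002) with no block. The steps were tested on simulated data. All members were named, with up to 4 genes of smallest p from each other list. Cdh2, Cdh3, Cdh5, Cdh11, Evpl, Ppl, Cdsn, the squamous and repressor genes below the filter, and Vil1 and Krt8 were named after their values were seen. Members, lists and tests were chosen with earlier results of these data known. Alternatives were other scalings, pseudocounts, filters, gene summaries, variance models, weights, a block, a covariate and left-out arrays.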

Additional observations from a re-analysis of the deposited data

How the results depend on the processing

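In no setting was a member probe set called after adjustment. Over all tested probe sets limma called 0 in the main setting (952 with an unadjusted p under 0.05), 1 on the signals as deposited, 1 with arrays centred on their median, 1 with the Gapdh ratio in the fit, 3 against wild type B alone, 74 with array weights, and 0 to 2 with an array left out (2 without wild type B, 1 without wild type C). With 1 control array its spread is assumed to be that of the other group. The weights gave wild type A 4.50 and wild type B and C 0.428 and 0.317; they are the gene-by-gene estimates, since the likelihood fit stopped before converging. Members with an unadjusted p under 0.05 numbered 0 in the main setting, 5 on the signals as deposited, 1 with median centring (number 5 of Dsg2; 3.77% of all tested), 9 with array weights, all lower (21.3% of all), and 0 to 5 with an array left out (1.74% to 16.1% of all). The member median was 0.28 as deposited, 0.098 with the Gapdh ratio, 0.21 against wild type B alone, and -0.21 to 0.00043 with an array left out.

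The replicate letters are not said to pair samples, and same-lettered arrays deviated together with correlations of -0.069, -0.16 and 0.43; with the letter as a replicate block limma called 1 probe set, and no member.

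The sign of uncalled differences turned in some settings, and the cause was not tested beyond the shift of all probe sets. The median of all tested probe sets was 0.40 as deposited and 0.16 with median centring, against 0.023 in the main setting, and relative to it 3 of 25 turned in each of the former (both of Epcam and the dimmest of Dsp), a comparison added after seeing the data. In absolute sign, on the signals as deposited 16 of 25 turned, to 0.17 for Cdh17, 0.013, 0.23 and 0.22 for Ctnnb1, 0.28, 0.27 and 0.27 for Ctnna1, 0.28 and 0.11 for Ctnnd1, 0.48 for Epcam, 0.20, 0.31 and 0.24 for Dsg2, 0.24 for Jup and 0.13 and 0.35 for Dsp. With median centring 10 of 25 turned, to 0.047, 0.033 and 0.031 for Ctnna1, 0.041 for Ctnnd1, -0.015 and 0.25 for Epcam, 0.072 and 0.0036 for Dsg2, 0.0042 for Jup and 0.12 for Dsp. With the Gapdh ratio in the fit 13 of 25 turned, to 0.098 for Cdh17, 0.022 and 0.19 for Ctnna1, 0.0088 for Ctnnd1, 0.32 for Epcam, 0.30, 0.26, 0.27 and -0.39 for Dsg2, 0.14 for Jup and 0.14, 0.14 and -0.27 for Dsp. Against wild type B alone 13 of 25 turned, to 0.14 for Cdh17, 0.083, 0.015 and 0.37 for Ctnna1, 0.28 for Ctnnd1, 0.29 for Epcam, 0.33, 0.29, 0.37 and -0.30 for Dsg2, 0.24 for Jup and 0.19 and 0.24 for Dsp. With array weights 3 of 25 turned, to -0.096 for Cdh1, -0.047 for Dsg2 and -0.32 for Dsp. With an array left out, the ranges that crossed 0 were -0.076 to 0.064 for Cdh1, -0.50 to 0.079 for Ctnna1, -0.0038 to 0.072 and -0.21 to 0.13 for Epcam, -0.29 to 0.11, -0.22 to 0.10, -0.090 to 0.20 and -0.26 to 0.20 for Dsg2 and -0.16 to 0.053 and -0.15 to 0.48 for Dsp. No sign turned with the other pseudocounts, filters and variance models, with the replicate block or with the brightest probe set of each gene.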
